A study of Rattus with 9 samples.

Results

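The genes described here make, store and release fat in the liver: 40 genes listed by symbol for fatty acid synthesis, triglyceride storage and lipid droplets, of which 39 have a row among the 20236 genes of the deposited table. No measured value enters the rule that selects them. Elovl6, a fatty acid elongase on the list, was not analysed here. Of the 39 genes, 33 were among the 11078 genes that reached 1 FPKM (fragments relative to the length of the gene and the total of the library) in at least 3 of the 9 libraries and were tested. The other 6, Aacs, Cd36, Fitm1, Plin4, Pnpla2 and Pnpla3, stayed under that limit and were left out of the main test. They are given by their values or reads. Aacs and Pnpla3 are also given by a fit with no filter on low values, and Pnpla3 entered the correlations.

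Poly(A) RNA from the liver of Sprague-Dawley rats, which are outbred, was sequenced in 9 libraries, 3 each from a normal control group, a model group and a pomegranate-high group, taken when administration had run for 8 weeks. The study is about pomegranate as a treatment of hyperlipidemia, an excess of lipid in the blood. How the model was made, what the control animals received, the pomegranate preparation and its dose, and the age and sex of the rats are not given in the labels. Nor do they state whether different libraries are different animals, and the p-values below therefore measure the spread between these libraries, which may be technical in part.

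Liver cells build fatty acids from cytosolic acetyl-CoA, lengthen and desaturate them, join them to glycerol 3-phosphate as triglyceride, and keep the triglyceride in lipid droplets coated with perilipins. Insulin drives the synthetic arm largely through the transcription factor SREBP-1c, made from Srebf1, and glucose through ChREBP, made from Mlxipl. Lipases and their partners at the droplet surface release the fatty acids again for oxidation or for export in lipoproteins.

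The libraries held 13678658 to 17966670 reads. A count of 0 allows up to 3 reads, which for a 1 kb gene means 0.167 to 0.219 FPKM. The 9 hepatocyte markers, albumin among them, summed to 70703 to 79972 FPKM in the controls and 67076 to 73255 in the model group. In pomegranate-high replicates 1 to 3 they summed to 55949, 51942 and 65922 FPKM, below every other library. Albumin made the largest part of these sums, at 23804, 23429 and 37186 FPKM in those replicates and 32136 to 48567 in the other 6 libraries. The order of the sums therefore reflects albumin most and does not show a shared decrease of the markers. By single marker, 4 of 9 had a lower mean in pomegranate-high than in model and 6 of 9 than in control. Over all tested genes the lower share was 39% and 42.6%. All hepatocyte sums were far above the 10 Kupffer cell and macrophage markers at 146 to 1222 FPKM and the 8 stellate cell markers at 24.9 to 103 FPKM. The share of reads from mitochondrially encoded genes was 14.5% in model replicate 1, 9.62% and 11.4% in pomegranate-high replicates 1 and 2, and 4.17% to 6.40% in the other 6 libraries. In bulk tissue, fewer cells of a type and less RNA per cell cannot be told apart.

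No gene of the set passed the threshold in any of the 3 comparisons. The test was limma on log2(FPKM + 1) with Benjamini-Hochberg adjustment over all 11078 tested genes, at an adjusted p under 0.05. Between model and normal control, 0 of the 33 tested genes passed beside 0.00903% of all tested genes, and the smallest adjusted p of a member by limma was 0.999. Between pomegranate-high and model, 0 of 33 passed beside 0.00903%, with a smallest adjusted p by limma of 0.453. Between pomegranate-high and normal control, 0 of 33 passed beside 0.0181%, with a smallest adjusted p by limma of 0.285. By voom, limma's model for counts, run on the reads recovered from the FPKM steps, 0 of 33 passed in each comparison as well. At this number of libraries the median standard error of a member's log2 difference was 0.32, against 0.28 over all tested genes, so the intervals of most members are wide in both directions. What follows describes levels and differences, each with its error, and no difference in it passed the adjusted threshold unless a sentence says that one library was left out.

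By the unadjusted p of limma, under 0.05, 3 of 33 members stood out between model and normal control beside 2.98% of all tested genes, 4 between pomegranate-high and model beside 8.69%, and 4 between pomegranate-high and normal control beside 10.2%. In direction, the pomegranate-high libraries had the lower mean for 19 of 33 members against the model libraries, where 39% of all tested genes were lower, and for 24 of 33 against the controls, where 42.6% were. The median log2 difference of the members was -0.26 against model and -0.27 against the controls, beside medians of 0.09 and 0.07 over all tested genes. Between model and control 19 of 33 members had the lower mean in the model libraries, beside 54.1% of all tested genes, and the members' median was -0.13 beside -0.03. The 2 comparisons with the pomegranate-high group share its libraries, so their medians are not independent of each other. In TPM, which sets the sum of all genes equal in every library, the median of all tested genes between pomegranate-high and control was -0.03 in place of 0.07. That of the members was -0.35. The limit of 1 was applied anew in TPM, so these medians cover 12132 genes and 35 members, and the shift is not that of rescaling alone. Without the 3 libraries of highest mitochondrial share, model replicate 1 and pomegranate-high replicates 1 and 2, the members' medians were 0.07 against model and -0.00043 against control, each with 1 pomegranate-high library.

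**Figure D1:**
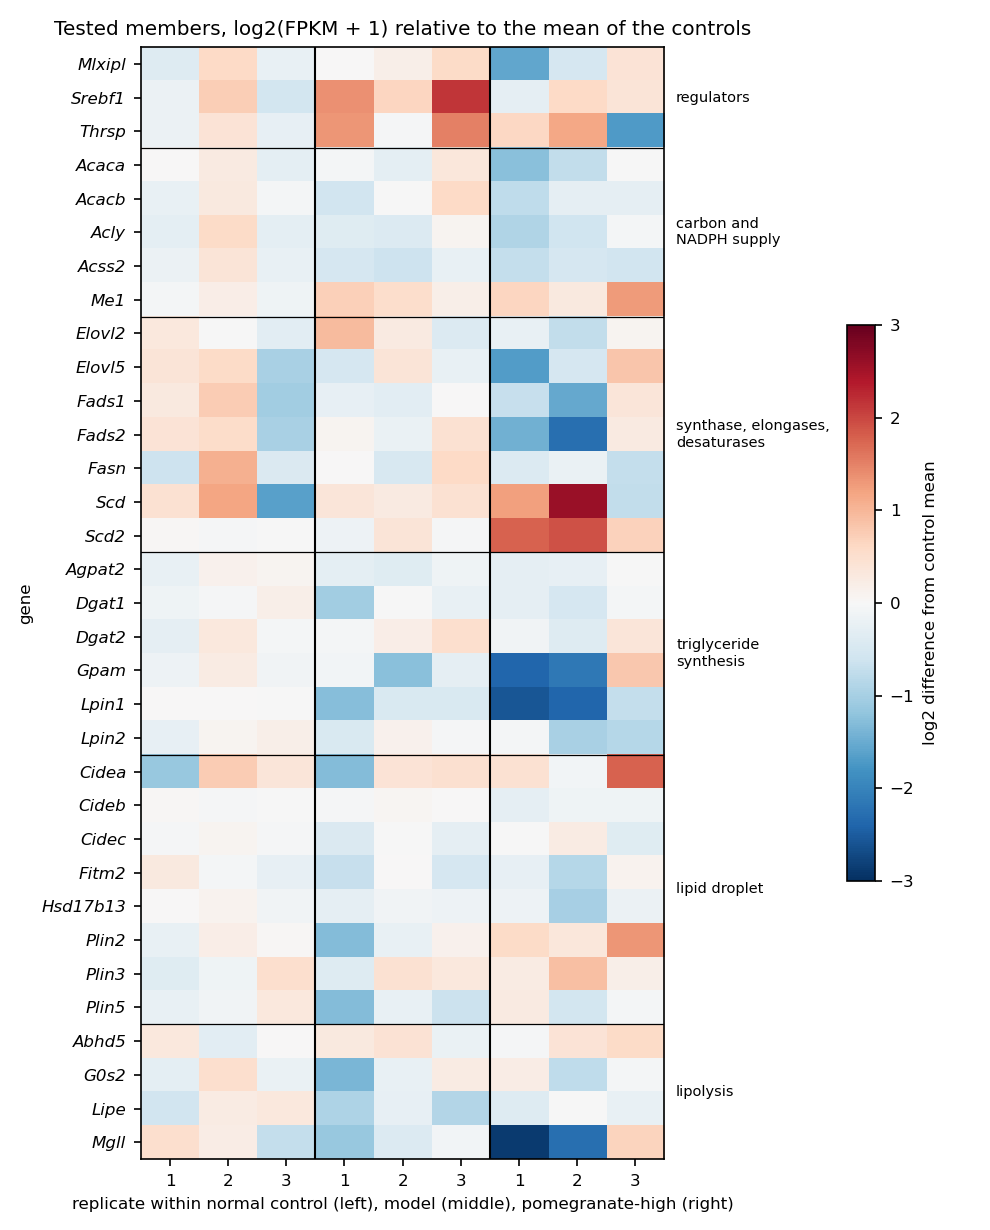
Each tested gene (rows, grouped by role) in each library (columns, replicates 1 to 3 of normal control, model and pomegranate-high from left to right) as the difference of log2(FPKM + 1) from the mean of the 3 control libraries, red higher and blue lower. Srebf1 is red in all 3 model libraries, Scd2 is red and Lpin1 blue in all 3 pomegranate-high libraries, and Fads2, Gpam and Mgll are blue in pomegranate-high replicates 1 and 2 but not in replicate 3.

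Among the regulators, Srebf1 was the member with the smallest p between model and control. Srebf1 stood at 25.3, 49.3 and 19.3 FPKM in the control libraries, 77.00, 46.1 and 132 in the model libraries and 23.9, 44.4 and 38.2 in the pomegranate-high libraries. All 3 model values lay above every pomegranate-high value, while model replicate 2 lay below control replicate 2, so model and control overlapped. The difference between model and control was 1.39 ± 0.44 log2 units (± SE, here and below; mean 84.9 ± 43.2 against 31.3 ± 15.9 FPKM, ± SD, n = 3), with adjusted p = 0.999 by limma. Between pomegranate-high and model it was -1.15 ± 0.44, with adjusted p = 0.524 by limma. Pomegranate-high and control, at 0.24 ± 0.44, differed by less than their spread. The gene lies on chromosome 10 at 46570996 to 46593009 of Rnor_6.0, on the minus strand, and overlaps Rai1 on the opposite strand, whose mean was 1.68 FPKM against 50.6 for Srebf1. Hepatic Srebf1 is known to follow feeding and the time of day, and the levels of clock genes also varied between these libraries. The summed level of 8 clock genes of the late phase, Dbp and Per3 among them, was 78.1 to 80.3 FPKM in the controls. It was 86.4, 189 and 219 in model replicates 1 to 3 and 60.7, 43.6 and 52.9 in pomegranate-high replicates 1 to 3. Dbp made the largest part in the model libraries, at 21.3, 87.6 and 79.6 FPKM. Of these genes 7 were tested, and 0 passed the adjusted threshold by limma in any comparison. The time of tissue collection is not given in the labels, and the part of the clock in the Srebf1 values was not tested.

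Thrsp encodes Spot 14, a nuclear protein that goes with lipogenesis and responds to thyroid hormone and carbohydrate. Its level was 80.1, 121 and 76.2 FPKM in the control libraries, 229, 87.9 and 260.1 in the model libraries and 139, 204 and 27.1 in the pomegranate-high libraries. Model replicates 1 and 3 were the highest of all 9 libraries and pomegranate-high replicate 3 the lowest. The difference between model and control, 0.94 ± 0.67, had an adjusted p of 0.999 by limma. Mlxipl, the gene of ChREBP, stood at 63.1, 124 and 70.7 FPKM in the control libraries, 83.4, 93.5 and 123 in the model libraries and 27.4, 57.3 and 110.0 in the pomegranate-high libraries. The groups overlapped in all 3 comparisons, and the difference furthest from 0 was -0.81 ± 0.46 between pomegranate-high and model (adjusted p = 0.634 by limma). The annotation in the file calls this row of Mlxipl a processed transcript, so its values may not be those of the coding form.

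Of the 5 tested genes that supply carbon and reducing power, 2 had a higher and 3 a lower mean on the log2 scale in model than in control, and 1 a higher and 4 a lower one in pomegranate-high than in control. Over all tested genes the lower share was 54.1% and 42.6% in these comparisons. Between model and control Acacb and Acaca lay within 0.03 of 0 and changed sign with the scaling, Acacb in TPM and Acaca with median-of-ratios scaling. Acly, ATP citrate lyase, which frees acetyl-CoA from citrate in the cytosol, stood at 11.98, 22.6 and 11.9 FPKM in the control libraries, 11.3, 10.99 and 15.7 in the model libraries and 7.47, 9.41 and 14.2 in the pomegranate-high libraries. Control replicate 2 was the highest of the 9 libraries, and the difference between model and control was -0.23 ± 0.31. Acaca encodes acetyl-CoA carboxylase 1, which makes the malonyl-CoA used for synthesis. It stood at 2.68, 3.36 and 1.95 FPKM in the control libraries, 2.48, 1.94 and 3.57 in the model group and 0.522, 1.17 and 2.57 in the pomegranate-high group. Model and control had nearly the same mean, with a difference of -0.0047 ± 0.32 (95% interval -0.71 to 0.70), while pomegranate-high replicates 1 and 2 were the lowest of the 9 and replicate 3 lay among the controls. Its difference between pomegranate-high and control was -0.67 ± 0.32 (adjusted p = 0.512 by limma).

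Acacb, acetyl-CoA carboxylase 2, makes the malonyl-CoA that restrains mitochondrial fatty acid uptake. Its level was 4.53, 6.92 and 5.18 FPKM in the control libraries, 3.36, 5.43 and 8.78 in the model group and 2.82, 4.37 and 4.39 in the pomegranate-high group. All 3 pomegranate-high values lay below every control value, at a difference of -0.43 ± 0.30 (adjusted p = 0.615 by limma). Acss2, which activates acetate, stood at 9.02, 13.7 and 8.74 FPKM in the control libraries, 7.01, 6.29 and 8.73 in the model libraries and 5.904, 6.91 and 6.62 in the pomegranate-high libraries. Every model and every pomegranate-high value was below the lowest control, model replicate 3 only by the second decimal. The differences from control were -0.45 ± 0.23 for model (adjusted p = 0.999 by limma) and -0.60 ± 0.23 for pomegranate-high (adjusted p = 0.433 by limma), and both used the same 3 control libraries. Me1, cytosolic malic enzyme, which yields NADPH, was the member of this group with higher means outside the controls. Its level was 3.73, 4.62 and 3.48 FPKM in the control libraries, 7.04, 6.13 and 4.52 in the model libraries and 6.68, 4.99 and 10.8 in the pomegranate-high libraries. All 3 pomegranate-high values lay above every control, with a difference of 0.73 ± 0.27 (adjusted p = 0.433 by limma), and 2 of the 3 model values did. Without pomegranate-high replicate 3 the difference from control was 0.46 ± 0.24. Aacs, which activates acetoacetate, was under the limit for testing, at 0.504, 1.11 and 1.29 FPKM in the control libraries, 0.298, 0.575 and 0.257 in the model group and 0.211, 0.579 and 0.366 in the pomegranate-high group, or 11 to 74 reads per library. With no filter on low values its differences from control were -0.50 ± 0.18 for model and -0.49 ± 0.18 for pomegranate-high, both with an unadjusted p under 0.05 (adjusted p = 1 and 0.501 by limma).

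Fasn, the synthase that builds palmitate, stood at 2.21, 9.33 and 2.63 FPKM in the control libraries, 3.98, 2.51 and 6.41 in the model libraries and 2.73, 3.28 and 1.99 in the pomegranate-high libraries. Control replicate 2 was the highest of all 9 and the other controls were among the low values, so the control SD of 4.00 FPKM was close to the control mean of 4.72. The difference between model and control was 0.04 ± 0.43, with a 95% interval of -0.93 to 1.00, and that between pomegranate-high and model -0.48 ± 0.43. That interval does not show that Fasn was equal in model and control.

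**Figure D2:**
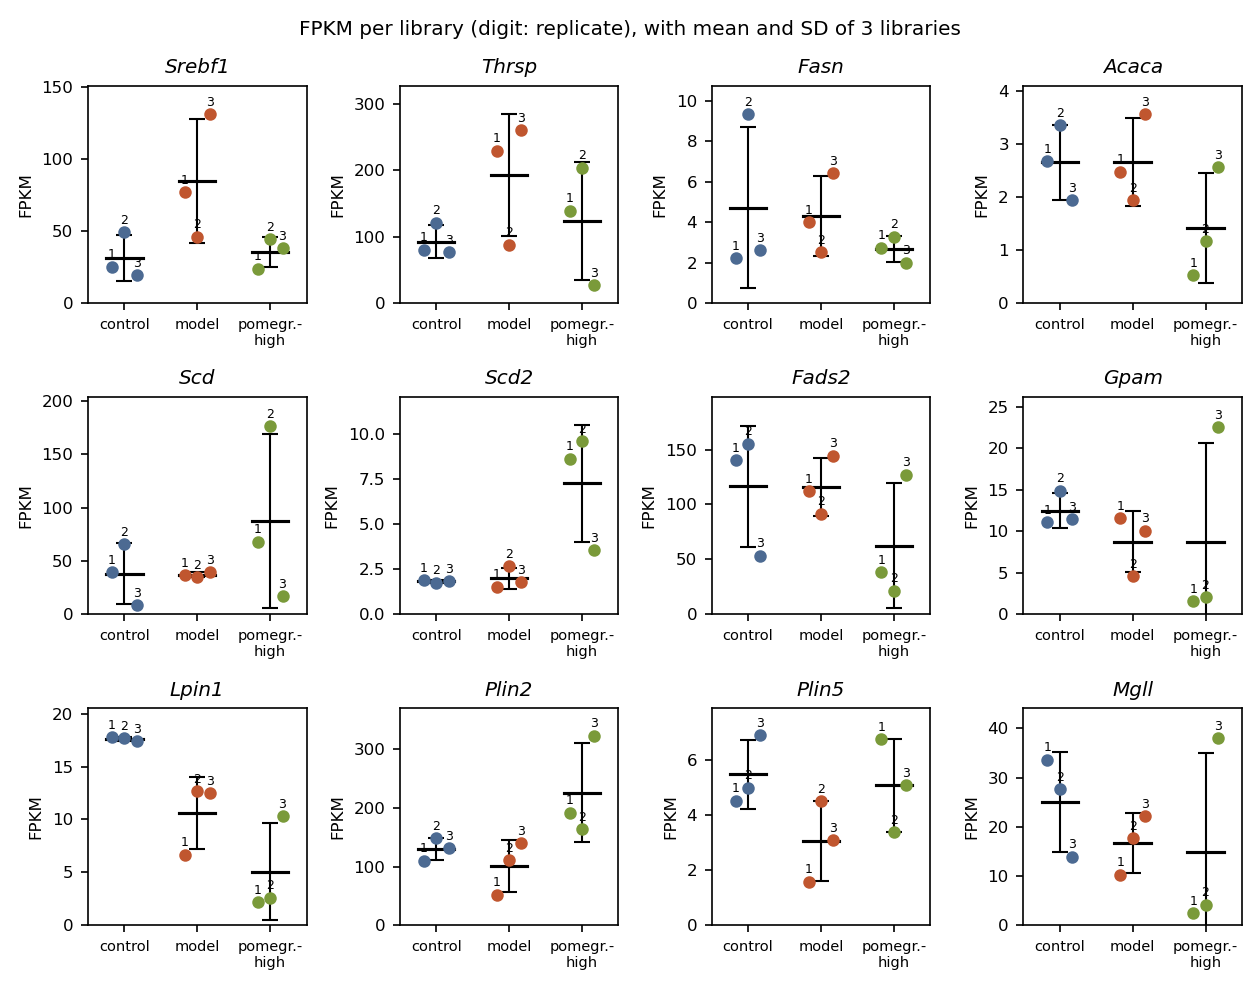
FPKM of 12 genes in each library (points, with the replicate number beside each), by group on the horizontal axis, with the mean (long bar) and SD (whiskers) of 3 libraries, on axes that start at 0. Srebf1 is highest in model replicates 3 and 1, the 3 Scd2 values of the pomegranate-high group lie above the other 6, and Gpam, Fads2 and Mgll of that group are split between replicate 3 and the other 2.

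Both stearoyl-CoA desaturases of the table had their highest values in pomegranate-high replicates 1 and 2. Scd is the main desaturase of liver, which introduces the double bond that turns stearate into oleate. Its level was 39.2, 65.6 and 8.51 FPKM in the control libraries, 36.6, 34.5 and 39.6 in the model libraries and 67.97, 177 and 16.7 in the pomegranate-high libraries. The model values lay close together, whereas the highest pomegranate-high value was 10.6 times the lowest, and the lowest control was the lowest of all 9 libraries. The differences of 0.67 ± 0.82 from model and 1.03 ± 0.82 from control were within the spread (adjusted p = 0.838 and 0.655 by limma). Without pomegranate-high replicate 2 the difference from model was -0.12, so the sign of the Scd difference from model rests on that library.

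Scd2, a paralog of Scd that in mouse is best known from the brain, had the smallest p of all members in both comparisons with the pomegranate-high group. Scd2 stood at 1.89, 1.74 and 1.81 FPKM in the control libraries, 1.52, 2.66 and 1.75 in the model libraries and 8.65, 9.601 and 3.57 in the pomegranate-high libraries. The 3 pomegranate-high values lay above all 6 others, and replicate 3 was the nearest to them. The mean was 7.27 ± 3.24 FPKM against 1.98 ± 0.604 in the model group and 1.81 ± 0.0734 in the controls (± SD, n = 3). The difference was 1.40 ± 0.31 from model (adjusted p = 0.453 by limma) and 1.46 ± 0.31 from control (adjusted p = 0.285 by limma). Without pomegranate-high replicate 3, when 77 of the 11078 tested genes passed against model and 328 against control, both passed, at 1.78 ± 0.22 from model (adjusted p = 0.0353 by limma) and 1.85 ± 0.22 from control (adjusted p = 0.0130 by limma); over the 18 alternatives in which Scd2 was tested the adjusted p ran from 0.0353 to 1 and from 0.0130 to 0.858. With that library as the only one of its group, after the 3 libraries of highest mitochondrial share were left out, the difference was 0.52 ± 0.26 from model and 0.70 ± 0.25 from control. Scd2 lies on chromosome 1 at 264059374 to 264072433 of Rnor_6.0, 87.7 kb from Scd on the opposite strand, and the sources used here do not give how reads matching both copies were assigned. The recovered reads reached 11137 for Scd, in pomegranate-high replicate 2, and 714 for Scd2, in replicate 1.

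The summed markers of stellate cells and of adipocytes were also highest in those 2 libraries. The 8 stellate cell markers summed to 73.6, 103 and 41.2 FPKM in pomegranate-high replicates 1 to 3, against 29.5 to 42.0 in the controls and 24.9 to 53.5 in the model group. Col3a1 made the largest part of these 3 sums, at 51.4, 61.5 and 27.9 FPKM. Lrat did not follow, at 3.11, 1.73 and 1.27 FPKM against 1.71 to 2.51 in the controls. The 6 adipocyte markers summed to 77.5, 66.8 and 23.0 FPKM in pomegranate-high replicates 1 to 3, against 13.5 to 32.97 in the controls and 11.8 to 28.3 in the model group. Cfd made the largest part in replicate 1, at 60.4 FPKM. In replicates 2 and 3 it stood at 19.5 and 18.9, within its control range of 10.5 to 30.9. Of the defining adipocyte genes, Plin1, Lep and Retn were each at 0 in 8 of the 9 libraries. Fabp4, which adipocytes share with macrophages and capillary endothelium, stood at 13.9, 31.2 and 2.30 FPKM in the pomegranate-high libraries and between 1.08 and 4.71 in the other 6. The 10 Kupffer cell and macrophage markers summed to 450 to 835 FPKM in the controls, 146 to 519 in the model group and 1222, 493 and 554 in pomegranate-high replicates 1 to 3. The 9 lymphocyte markers summed to 16.0 to 25.7, 11.2 to 20.8 and 22.9 to 39.4 FPKM in the control, model and pomegranate-high groups, the 6 red blood cell genes to 1260 to 1898, 475 to 1257 and 1494 to 2923, and the 8 endothelial markers to 109 to 111, 48.9 to 77.6 and 64.4 to 115. The endothelial sums of pomegranate-high replicates 1 to 3 were 64.4, 115 and 78.9, so those of replicates 1 and 3 lay below every control. The part of other cell types in the Scd2 and Scd values was not tested.

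The desaturases and elongases of polyunsaturated fatty acids showed the reverse layout within the pomegranate-high group. Fads2, delta-6 desaturase, the first step from linoleate, stood at 141, 155 and 53.3 FPKM in the control libraries, 112, 91.5 and 144 in the model libraries and 37.95, 21.2 and 127 in the pomegranate-high libraries. Pomegranate-high replicates 1 and 2 were the lowest of all 9, and replicate 3 lay within the range of the other groups. Its differences were -1.26 ± 0.60 from model (adjusted p = 0.593 by limma) and -1.15 ± 0.60 from control (adjusted p = 0.536 by limma), and 0.15 ± 0.63 and 0.27 ± 0.59 once the 3 libraries of highest mitochondrial share were left out. Fads1, delta-5 desaturase, which lies 81.5 kb from Fads2 on chromosome 1, stood at 31.9, 44.5 and 12.1 FPKM in the control libraries, 21.7, 20.5 and 26.2 in the model group and 15.7, 8.26 and 33.4 in the pomegranate-high group. Its groups overlapped throughout, with a difference of -0.63 ± 0.52 between pomegranate-high and control. Elovl5, which extends polyunsaturated chains, stood at 66.96, 76.7 and 25.4 FPKM in the control libraries, 35.4, 67.2 and 43.8 in the model libraries and 15.1, 35.8 and 91.4 in the pomegranate-high libraries. Control replicate 3 was low for Fads1, Fads2 and Elovl5 as well, so low values of these genes were not limited to the pomegranate-high group. Elovl2, which works on longer polyunsaturated chains, stood at 11.6, 9.11 and 7.22 FPKM in the control libraries, 18.6, 11.2 and 6.69 in the model group and 7.68, 5.14 and 9.804 in the pomegranate-high group, and its groups overlapped throughout.

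Of the 6 genes of triglyceride synthesis, all 6 had a lower mean on the log2 scale in pomegranate-high than in control, 1 of them with an unadjusted limma p under 0.05. Over all 11078 tested genes 42.6% had a lower mean and 2.92% a lower one at that p. The 6 differences ran from -1.88 for Lpin1 to -0.04 for Dgat2. That of Gpam was 0.82 without the 3 libraries of highest mitochondrial share, so the count of 6 does not show a shared decrease. The gene at that p was Lpin1, which encodes lipin 1, a phosphatidate phosphatase that makes diacylglycerol and also acts as a nuclear coregulator. Lpin1 stood at 17.8, 17.7 and 17.4 FPKM in the control libraries, 6.65, 12.7 and 12.5 in the model libraries and 2.16, 2.598 and 10.3 in the pomegranate-high libraries. The controls differed by under 1 FPKM, every model and every pomegranate-high value was lower than all of them, and pomegranate-high replicate 3 lay among the model values. The mean was 17.6 ± 0.198 FPKM in the controls, 10.6 ± 3.42 in the model group and 5.02 ± 4.59 in the pomegranate-high group (± SD, n = 3). The difference from control was -1.88 ± 0.44 for pomegranate-high (adjusted p = 0.285 by limma) and -0.73 ± 0.44 for model (adjusted p = 0.999 by limma), against the same 3 control libraries. Pomegranate-high and model differed by -1.15 ± 0.44 (adjusted p = 0.524 by limma).

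Without pomegranate-high replicate 3, Lpin1 passed against control at -2.47 ± 0.28 (adjusted p = 0.0126 by limma) and against model at -1.73 ± 0.28 (adjusted p = 0.0422 by limma). Over the 19 alternatives the adjusted p ran from 0.0126 to 0.777 against control and from 0.0422 to 1 against model. The Lpin1 values were lowest in the libraries with the highest mitochondrial shares: with that share as a covariate the difference from control was -1.38 ± 0.32 for pomegranate-high and -0.20 ± 0.32 for model, and without the 3 libraries of highest share it was -0.72 ± 0.21 and -0.46 ± 0.16. The part of the mitochondrial share in the level of Lpin1 was not tested beyond these fits. Lpin2, a second lipin and the more abundant one on average here, stood at 14.5, 18.6 and 19.99 FPKM in the control libraries, 12.4, 19.3 and 17.02 in the model libraries and 16.9, 8.41 and 9.305 in the pomegranate-high libraries. Pomegranate-high replicates 2 and 3 were the lowest of all 9 while replicate 1 lay among the controls, with a difference from control of -0.62 ± 0.29 (adjusted p = 0.498 by limma).

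Gpam, mitochondrial glycerol-3-phosphate acyltransferase, which catalyses the first step of glycerolipid synthesis, split the pomegranate-high group most sharply among these genes. It stood at 11.03, 14.9 and 11.5 FPKM in the control libraries, 11.6, 4.57 and 10.1 in the model group and 1.56, 2.03 and 22.5 in the pomegranate-high group. Pomegranate-high replicates 1 and 2 were the lowest of all 9 libraries and replicate 3 the highest, 14.4 times the lowest. The mean of that group, 8.69 ± 11.95 FPKM (SD, n = 3), therefore describes none of its libraries. The difference from control was -1.24 ± 0.71 (adjusted p = 0.559 by limma) with all libraries, -2.26 ± 0.35 without pomegranate-high replicate 3 (adjusted p = 0.0218 by limma), and 0.82 ± 0.39 without the 3 libraries of highest mitochondrial share. The lowest adjusted p of Gpam against control over leaving out each library in turn was 0.0218 and the highest 0.927.

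Agpat2, the acyltransferase that makes phosphatidate, varied little, from 64.2 to 90.8 FPKM over the 9 libraries, with differences of -0.26 ± 0.21, 0.09 ± 0.21 and -0.18 ± 0.21 in the 3 comparisons; the second, between pomegranate-high and model, turned to -0.02 in TPM and -0.03 with median-of-ratios scaling. Dgat1 and Dgat2 carry out the last step, the joining of a fatty acid to diacylglycerol. Dgat1 stood at 27.5, 29.04 and 33.7 FPKM in the control libraries, 14.1, 29.7 and 25.5 in the model libraries and 24.6, 20.9 and 28.97 in the pomegranate-high libraries, with model replicate 1 the lowest of all 9. Dgat2 was several times more abundant, at 107, 159.7 and 125 FPKM in the control libraries, 123, 147 and 184 in the model libraries and 119, 98.2 and 167 in the pomegranate-high libraries. Neither separated any 2 groups, and their differences between model and control were -0.42 ± 0.28 for Dgat1 and 0.21 ± 0.28 for Dgat2. Between pomegranate-high and control they were -0.27 for Dgat1 and -0.04 for Dgat2.

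**Figure D3:**
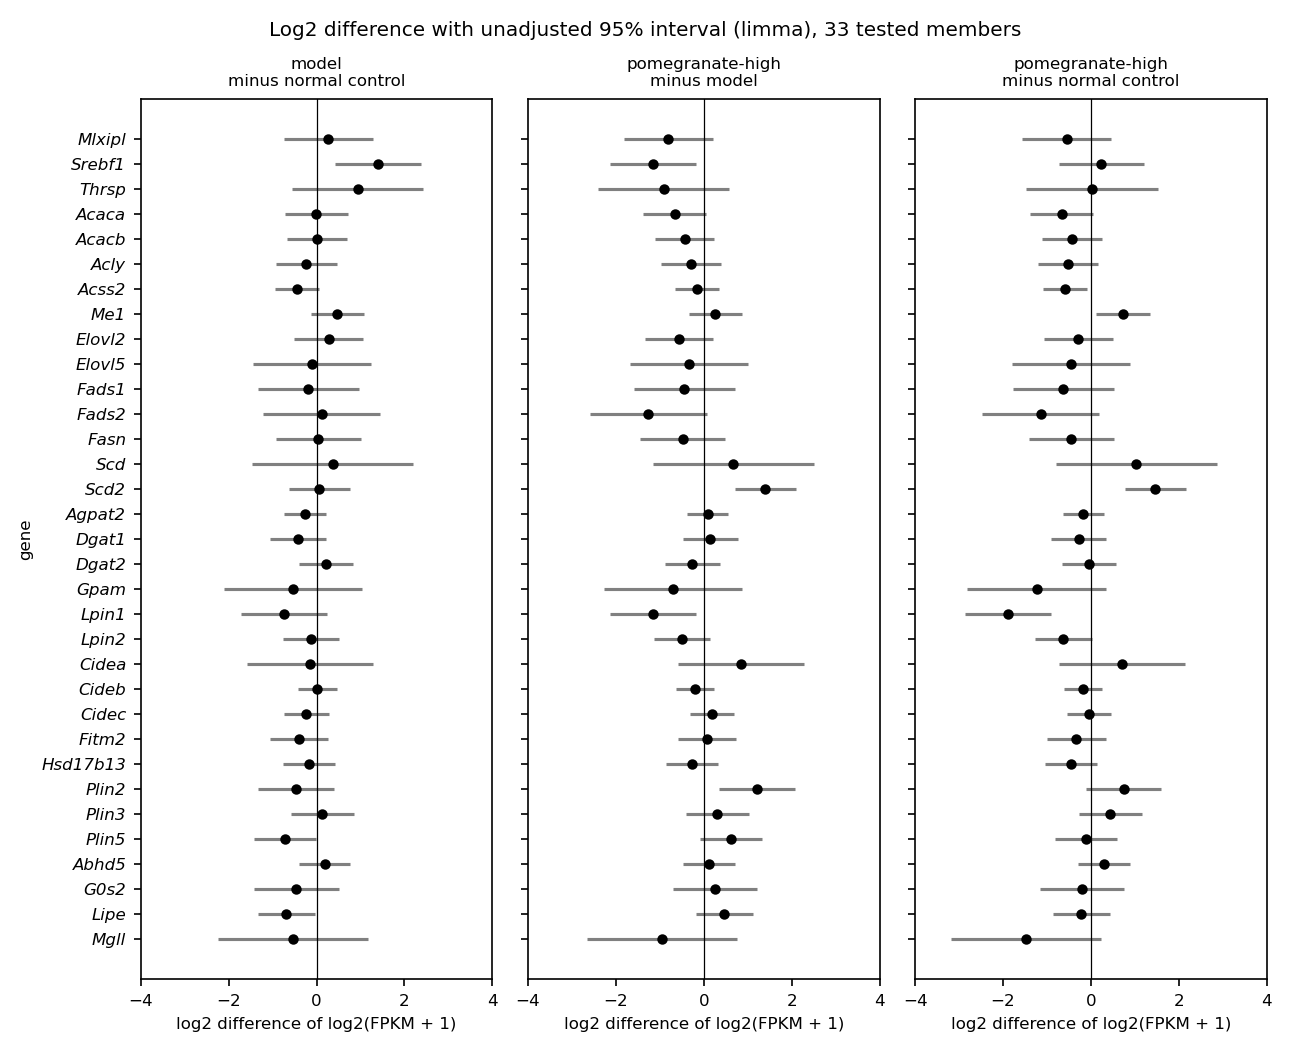
Log2 difference of log2(FPKM + 1) with its unadjusted 95% interval from limma (horizontal axis) for each of the 33 tested genes (vertical axis) in the 3 comparisons, left to right, with a vertical line at 0. The intervals of Srebf1, Scd2, Plin2, Lpin1, Me1, Acss2, Lipe and Plin5 lie on one side of 0 in at least 1 comparison, and no gene passed after adjustment.

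On the lipid droplet, Plin2 was higher and Cideb slightly lower in every pomegranate-high library than in every other. Plin2 encodes perilipin 2, the main droplet coat protein of hepatocytes, which is stabilised by stored lipid and is a target of PPAR-alpha. Its level was 109.9, 148 and 131 FPKM in the control libraries, 51.7, 110.4 and 140.3 in the model libraries and 192, 164 and 324 in the pomegranate-high libraries. The 3 pomegranate-high values lay above all 6 others, replicate 3 furthest, and model replicate 1 was the lowest of the 9. The difference was 1.21 ± 0.39 from model (adjusted p = 0.478 by limma) and 0.75 ± 0.39 from control (adjusted p = 0.531 by limma). The difference from control was 0.46 ± 0.40 without pomegranate-high replicate 3, 1.24 ± 0.17 with a covariate for the mitochondrial share, and 1.32 ± 0.29 without the 3 libraries of highest share. Over the 19 alternatives the difference from model ran from 0.68 to 1.51 and its adjusted p by limma from 0.107 to 0.872.

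Plin5, a perilipin that ties droplets to mitochondria, stood at 4.53, 5.002 and 6.92 FPKM in the control libraries, 1.59, 4.51 and 3.09 in the model libraries and 6.78, 3.37 and 5.11 in the pomegranate-high libraries. All 3 model values were below every control, model replicate 2 only narrowly. The difference between model and control was -0.73 ± 0.32 (adjusted p = 0.999 by limma), and between pomegranate-high and model 0.61 ± 0.32 (adjusted p = 0.610 by limma). Without model replicate 1, which had the highest mitochondrial share, the first was -0.43 ± 0.29. Plin3, a widely expressed perilipin, stood at 11.3, 13.5 and 21.7 FPKM in the control libraries, 11.2, 20.8 and 18.95 in the model group and 18.1, 28.6 and 16.9 in the pomegranate-high group, with overlap in all comparisons. Plin4, next to Plin5 on chromosome 9, was close to absent at 1 to 11 reads per library, or 0.0140 to 0.161 FPKM.

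The CIDE proteins bring droplets into contact and let lipid pass between them, and CIDEB also takes part in the lipidation of VLDL. Cideb had the smallest ratio of highest to lowest value among the tested members, at 159, 149 and 153 FPKM in the control libraries, 151, 161 and 155 in the model libraries and 128, 141 and 139 in the pomegranate-high libraries. Its pomegranate-high values lay below all 6 others, by differences of -0.19 ± 0.20 from model and -0.17 ± 0.20 from control that were within the error of the fit (adjusted p = 0.792 and 0.758 by limma). Cidec stood at 38.6, 42.4 and 38.5 FPKM in the control libraries, 29.4, 39.7 and 32.9 in the model libraries and 39.5, 47.2 and 30.7 in the pomegranate-high libraries, with overlap throughout. Cidea stood at 3.74, 16.9 and 12.5 FPKM in the control libraries, 3.21, 12.98 and 13.5 in the model libraries and 13.3, 8.85 and 34.4 in the pomegranate-high libraries. The groups overlapped in all comparisons, and 1 control and 1 model library were under 4 FPKM.

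Hsd17b13, a droplet-bound enzyme of hepatocytes, stood at 164, 176 and 152 FPKM in the control libraries, 135, 153 and 148 in the model libraries and 146, 80.9 and 145 in the pomegranate-high libraries. The pomegranate-high values were below every control, 2 of them narrowly and replicate 2 clearly, at a difference of -0.44 ± 0.27 (adjusted p = 0.569 by limma). Fitm2, which helps new droplets leave the endoplasmic reticulum, ranged from 6.29 to 15.3 FPKM with overlap in all comparisons, and its difference between pomegranate-high and model, 0.07, had the opposite sign in TPM and with median-of-ratios scaling. Its relative Fitm1, known from muscle, had 0 to 5 reads per library. Pnpla3, a droplet protein whose human form is known for a common variant in fatty liver, stood at 0.115, 0.168 and 0.0346 FPKM in the control libraries, 0.0682, 0.07603 and 0.0365 in the model libraries and 0, 0.0442 and 0.0191 in the pomegranate-high libraries. These are 0 to 9 reads per library, at which counting error is large. With no filter on low values the difference between pomegranate-high and control was -0.11 ± 0.05 (adjusted p = 0.525 by limma), with an unadjusted p under 0.05.

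Of the lipolysis genes, Lipe and Mgll gave the differences with the smallest p. Lipe, hormone-sensitive lipase, which is chiefly an adipose enzyme, was low in this liver, at 2.07, 4.48 and 4.73 FPKM in the control libraries, 1.401, 2.89 and 1.49 in the model libraries and 2.49, 3.53 and 2.902 in the pomegranate-high libraries. Model and control overlapped because control replicate 1 lay below model replicate 2, and their difference was -0.69 ± 0.29 (adjusted p = 0.999 by limma). Mgll, monoacylglycerol lipase, which takes the last fatty acid from glycerol, stood at 33.7, 27.6 and 13.9 FPKM in the control libraries, 10.2, 17.6 and 22.2 in the model libraries and 2.35, 4.15 and 37.98 in the pomegranate-high libraries. As with Gpam, pomegranate-high replicates 1 and 2 were the lowest of all 9 libraries and replicate 3 the highest, 16.2 times the lowest. The difference from control was -1.49 ± 0.77 (adjusted p = 0.531 by limma) with all libraries, -2.56 ± 0.43 without pomegranate-high replicate 3 (adjusted p = 0.0289 by limma, against up to 0.910 when other libraries were left out), and 0.67 ± 0.45 without the 3 libraries of highest mitochondrial share.

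Pnpla2, adipose triglyceride lipase, which starts lipolysis, was under the limit for testing at 0.552, 0.617 and 0.695 FPKM in the control libraries, 0.261, 0.599 and 0.653 in the model group and 0.654, 0.253 and 0.602 in the pomegranate-high group. Its inhibitor G0s2 was the most abundant member, at 241, 418 and 259 FPKM in the control libraries, 114, 252 and 349.9 in the model libraries and 345, 175 and 287 in the pomegranate-high libraries. Model replicate 1 was the lowest of the 9 and control replicate 2 the highest, and the groups overlapped. Abhd5, the coactivator of that lipase, ranged from 8.53 to 16.5 FPKM with overlap throughout. Cd36, a fatty acid transporter, was under the limit at 0.439, 0.6805 and 0.317 FPKM in the control libraries, 1.097, 0.128 and 0.246 in the model libraries and 0.691, 0.732 and 0.449 in the pomegranate-high libraries, and 2 genes of the annotation overlap it on the same strand, so its reads are uncertain.

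The members varied more between libraries of a group than genes did in general, and most in the pomegranate-high group. The median SD of log2(FPKM + 1) within a group was 0.309 for the members and 0.225 for all tested genes in the controls, 0.359 and 0.332 in the model group, and 0.493 and 0.345 in the pomegranate-high group. The SD was largest in the pomegranate-high group for 18 of 33 members and for 45.6% of all tested genes. The pseudocount of 1 shrinks the SD of low genes, and the members were more abundant than genes in general. A mean of at least 5 FPKM was reached by 28 members and by 6526 genes of the table, where 33 and 11078 were tested. The part of level in the SD of the members was not tested. Within the controls, replicate 2 had the highest value for 21 of 33 members, where 28.8% of all tested genes were highest there. Within the pomegranate-high group, replicate 3 had the highest value for 19 of 33 members, against 42.3% of all tested genes. Within the model group, replicate 1 had the lowest value for 19 of 33 members, against 54.7% of all tested genes. Non-overlap of whole groups, in either direction, was seen for 3 of 33 members between model and control beside 8.79% of all tested genes (0 higher beside 3.97%, and Acss2, Lpin1 and Plin5 lower beside 4.82%), for 4 between pomegranate-high and model beside 10.8% (Scd2 and Plin2 higher beside 8.78%, Srebf1 and Cideb lower beside 2.05%), and for 8 between pomegranate-high and control beside 16.1%. Of those 8 members, Scd2, Me1 and Plin2 were higher, beside 12.4% of all tested genes, and Lpin1, Acss2, Acacb, Hsd17b13 and Cideb were lower, beside 3.66%.

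Whether the lipogenic genes went with Srebf1 across the 9 libraries was examined for 17 pairs on log2(FPKM + 1), 9 with Srebf1 and 8 with Fasn. No pair passed Benjamini-Hochberg adjustment by Pearson's r or Spearman's rho with exact two-sided permutation p-values over all pairings. Srebf1 and Fasn gave r = 0.61 (exact permutation p = 0.0804, adjusted p = 0.341) and rho = 0.63 (exact permutation p = 0.0760, adjusted p = 0.431), and r was 0.46 without model replicate 3 and control replicate 3, the libraries farthest from the median of Srebf1. Srebf1 and Acaca gave r = 0.53 (exact permutation p = 0.141, adjusted p = 0.341) and rho = 0.52 (exact permutation p = 0.162, adjusted p = 0.550), and Srebf1 and Scd gave r = 0.25 (exact permutation p = 0.520, adjusted p = 0.680) and rho = 0.22 (exact permutation p = 0.581, adjusted p = 0.745). Over deviations from the group means, as a description, r with Srebf1 was 0.82 for Fasn, 0.79 for Acly, 0.73 for Acaca and 0.65 for Acacb, and for the other 5 genes it was 0.45 for Pnpla3, 0.42 for Scd, 0.38 for Thrsp, 0.37 for Gpam and -0.06 for Me1. Fasn and Acly gave r = 0.69 (exact permutation p = 0.0447, adjusted p = 0.341) and rho = 0.22, and r was -0.42 without control replicate 2 and model replicate 3, so that relation rests on those libraries. Fasn and Thrsp gave r = 0.57 (exact permutation p = 0.118, adjusted p = 0.341) and rho = 0.78 (exact permutation p = 0.0172, adjusted p = 0.293), and r was 0.90 without the same 2 libraries. The values of a pair share the library, its depth and its mitochondrial share.

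**Figure D4:**
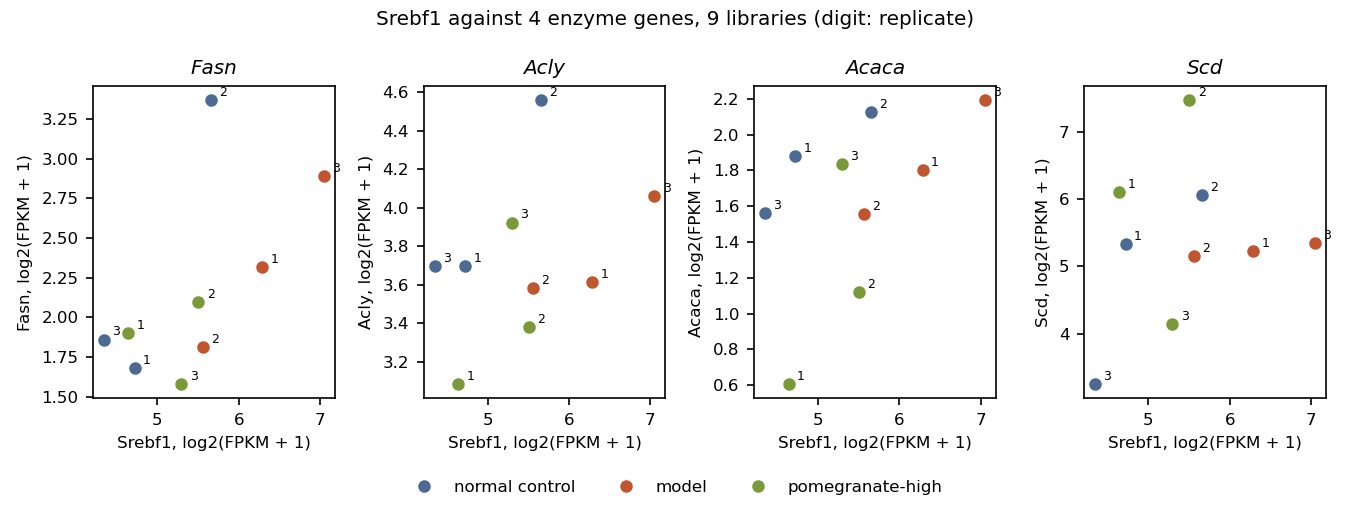
Srebf1 (horizontal axis) against Fasn, Acly, Acaca and Scd (vertical axis of each panel), both as log2(FPKM + 1), 1 point per library coloured by group with its replicate number. Model replicate 3 has the highest Srebf1, control replicate 2 the highest Fasn and Acly, and pomegranate-high replicate 2 the highest Scd.

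Genes of the same pathways outside the 40 were read from a list of 79 symbols, of which 77 were in the table and 65 were tested, and 0 of them passed in any comparison by limma with adjustment over all genes. Between model and control 2 were higher and 0 lower at an unadjusted limma p under 0.05, beside 1.2% and 1.78% of all tested genes. Aadac, an esterase of the endoplasmic reticulum, was one of them, at 0.74 ± 0.33 (adjusted p = 0.999 by limma). Between pomegranate-high and model, as between pomegranate-high and control, 7 were higher and 1 lower, beside 7.12% and 1.57% of all tested genes in the first and 7.24% and 2.92% in the second.

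The gene lower in both was Insig1, which holds SREBP precursors in the endoplasmic reticulum and is itself an SREBP target. Insig1 stood at 211, 96.3 and 149.8 FPKM in the control libraries, 56.5, 89.1 and 127 in the model libraries and 76.2, 22.6 and 41.3 in the pomegranate-high libraries. Every pomegranate-high value was below every control, at -1.78 ± 0.47 (adjusted p = 0.309 by limma), and the difference from model was -1.04 ± 0.47 (adjusted p = 0.573 by limma). Among the higher genes, Lpcat2, an acyltransferase of phospholipid remodelling that also sits on droplets, stood at 1.86, 2.2003 and 1.40 FPKM in the pomegranate-high libraries and between 0.402 and 0.710 in the other 6. The difference was 0.88 ± 0.20 from model (adjusted p = 0.453 by limma) and 0.83 ± 0.20 from control (adjusted p = 0.285 by limma). Lpcat2 reached 1 FPKM only in the pomegranate-high libraries, so it met the limit for testing only because it was higher there. The filter thus selected its direction, and its differences, p-values and place among the higher genes are no independent evidence of an increase. Fabp2, a fatty acid binding protein best known from intestine, stood at 3.68, 5.16 and 3.85 FPKM in the pomegranate-high group, above all 6 other libraries.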

How the data were processed

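The authors deposited 1 table of FPKM values with 20236 genes and 1 column per library, and 0 value columns were left unmapped. The labels' protocols describe oligo(dT) selection of mRNA, random priming and a marked second strand. The submitters' processing notes name, with no role, Rnor_6.0, DESeq, DESeq2, HTSeq 0.6.0, TopHat2, HISAT2 and Bowtie2 2.2.3. The sources used here do not give the authors' steps from reads to FPKM or say if strand was used in counting. Since FPKM divides by the library total, a change in the most abundant genes moves the rest. The values were whole multiples of 1 read for 100% of 146433 values above 0, within 0.001 reads, which gave the depths.

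Groups came from the group field, and replicate numbers follow sample order and pair nothing. Genes with at least 1 FPKM in at least 3 of 9 libraries were analysed on the scale log2(FPKM + 1), whose pseudocount of 1 understates differences of low genes, with limma 3.58.1 under R 4.3.3. The fit held all 9 libraries, with 6 residual degrees of freedom and a variance trend, tests were two-sided, and the Benjamini-Hochberg adjusted p threshold was 0.05. The code of the fit was checked on simulated data with independent errors, without differences between libraries that many genes share. That check does not show how many changes of a given size could be found in these libraries. Correlations used Python 3.11.15 and 362880 pairings.

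The members, the pathway and marker lists and the tests were chosen with earlier results of these data known, so no p was computed for a list. Values per library are given for a fixed set of 25 members, for the 5 with the smallest p per direction and comparison, and for others whose groups did not overlap or that were under the limit. Up to 2 genes per pathway list and comparison with the smallest p could be named. Some of these are not reported here. The alternatives were a pseudocount of 0.1, no filter, a mean FPKM of at least 5, TPM, median-of-ratios scaling, the 2 groups alone, library quality weights, a covariate for the mitochondrial share, the fit without the 3 libraries of highest share, voom on recovered reads, and leaving out each library.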

Additional observations from a re-analysis of the deposited data

How the results depend on the processing

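The count of members past the adjusted threshold by limma was 0 in all 3 comparisons and stayed 0 under all alternatives other than leaving out 1 library. Leaving out each library in turn it was 0 between model and control, 0 to 2 between pomegranate-high and model (2 without pomegranate-high replicate 3, Scd2 and Lpin1) and 0 to 4 between pomegranate-high and control (4 without that library, with Gpam and Mgll added). Without that library 77 and 328 of all 11078 genes passed in these comparisons, in place of 1 and 2. The cause was not tested. The count at an unadjusted p under 0.05 between model and control, 3 as reported, was 1 at a mean FPKM of at least 5, where fewer genes were tested, 1 with a covariate for the mitochondrial share, and 1 to 3 leaving out each library (1 without control replicate 2 or 3 or model replicate 1 or 3). Between pomegranate-high and model, 4 as reported, it was 9 with library quality weights and 3 to 9 leaving out each library; between pomegranate-high and control, 4 as reported, it was 9 with quality weights, 7 without the 3 libraries of highest mitochondrial share, and 3 to 11 leaving out each library. The highest counts of both came without pomegranate-high replicate 3. The share of all genes at that p, 8.69% and 10.2% as reported in these comparisons, was 17.4% and 20.1% with quality weights, 17.9% and 20.8% without that library, and 3.68% and 5.65% without the 3 libraries of highest mitochondrial share. The members' median was 0.073 in place of -0.26 against model, and -0.00043 in place of -0.27 against control, without the 3 libraries of highest mitochondrial share. Leaving out each library, the medians ran from -0.23 to 0.05 between model and control, from -0.26 to -0.10 between pomegranate-high and model, and from -0.30 to -0.16 between pomegranate-high and control.

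Median-of-ratios scaling changed the split of all tested genes at an unadjusted p under 0.05 from 789 higher and 174 lower to 565 and 385 between pomegranate-high and model, and from 802 and 323 to 602 and 557 between pomegranate-high and control. Of the 33 tested members, both this scaling and TPM turned the sign of Thrsp between pomegranate-high and control and of Agpat2 and Fitm2 between pomegranate-high and model. Between model and control TPM turned Acacb and Cideb, and median-of-ratios scaling Acaca. Of these values the furthest from 0 was -0.11, for Thrsp in TPM. The 17 correlations gave 0 calls with a pseudocount of 0.1, in TPM, with median-of-ratios scaling, without the 3 libraries of highest mitochondrial share and leaving out each library. No paired analysis was possible because the replicate numbers follow sample order and the labels give no pairs. With no filter on low values, Aacs reached an unadjusted p under 0.05 in both comparisons with control and Pnpla3 between pomegranate-high and control, and none of the 6 members under the limit passed adjustment over 19840 genes by limma. The depth was 13678658 to 17966670 reads per library.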

Other observations

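By mean FPKM over the 9 libraries, a scale per gene length, the most abundant members were genes of the droplet and of triglyceride storage rather than of synthesis from acetyl-CoA. G0s2, the inhibitor of adipose triglyceride lipase, had a mean of 271 FPKM, Plin2 152, Cideb 149, Hsd17b13 144 and Dgat2 137. Thrsp, at 136 FPKM, was the first gene of the lipogenic programme in that order, ahead of Fads2 at 98.2 and Scd at 54.0. Fasn, at 3.90 FPKM, and Acaca, at 2.25 FPKM, were among the 4 lowest of the 33 tested members. The order is a description of level, with no test, and neighbours in it can overlap across the libraries, as Plin2 (51.7 to 324 FPKM) and Cideb (128 to 161 FPKM) did.

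Pairs of members lie close together in the genome. Plin5 and Plin4 are 1.94 kb apart on chromosome 9 of Rnor_6.0, Fads2 and Fads1 81.5 kb apart on chromosome 1, and Scd2 and Scd 87.7 kb apart on the same chromosome. The neighbours differed widely in level: Plin5 had a mean of 4.55 FPKM and Plin4 0.0694, Fads2 98.2 and Fads1 23.8, and Scd 54.0 and Scd2 3.69.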
